A study of Mus musculus with 10 samples.

Results

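The 9 genes of C-type lectin receptors known from endothelium were followed across endothelial cells of mouse lymph node (LN) and diaphragm. They were the 9 rows of the count table that carry the symbols Clec1a, Clec1b, Clec2d, Clec4g, Clec14a, Mrc1, Mrc2, Ly75 and Cd93, out of 23284 rows in all. The rule used the gene names only, and all 9 genes passed the filter on low counts. RNA was sequenced from 10 libraries of freshly sorted cells of C57BL/6 (B6) mice aged 6 to 8 weeks, for which the labels name no treatment and no genetic change. LN lymphatic endothelial cells (LN-LEC, 4 libraries) and LN blood endothelial cells (LN-BEC, 3 libraries) came from inguinal, axillary, brachial, cervical and mesenteric nodes that had been pooled, and LEC sorted from diaphragm (D-LEC, 3 libraries) stood for peripheral tissue lymphatics. CD45-bearing cells were depleted, CD31-positive cells were sorted with PDPN (LEC) or without it (BEC), and cells of several mice were pooled for each library. A library therefore describes a pool of mice and of all vessel segments with that surface phenotype. In such bulk libraries, fewer cells that express a gene and less RNA per cell cannot be told apart.

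C-type lectin receptors share an extracellular fold that in some members binds sugars in a calcium-dependent way and in others binds proteins. Clec4g (LSECtin) is a sugar-binding receptor of liver and LN sinusoidal endothelium, Clec1b (CLEC-2) is the podoplanin receptor best known from platelets, and Clec1a (CLEC-1) is a related receptor of endothelium and myeloid cells. Clec2d (Clr-b) is a ligand for inhibitory receptors of natural killer cells. Mrc1 (CD206), Mrc2 (Endo180) and Ly75 (DEC-205) belong to the mannose receptor family of endocytic receptors with several lectin-like domains in a row. Clec14a and Cd93 belong to a group with a single lectin-like domain and EGF-like sequence and take part in endothelial adhesion and vessel sprouting.

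In the mm9 annotation of the deposited table, 3 of the genes lay close together on chromosome 6: Clec2d (chr6:129130633-129136553, plus strand), Clec1b (chr6:129347315-129355431, plus strand) and Clec1a (chr6:129376702-129402018, minus strand). Clec4g (chr8:3716071-3720651, minus strand) stood between Fcer2a and Cd209a, which also encode C-type lectins. Clec14a (chr12:59365707-59370245, minus strand) had 1 exon and Cd93 (chr2:148262387-148269271, minus strand) had 2. Mrc1 (chr2:14151041-14253650, plus strand) and Mrc2 (chr11:105153960-105212459, plus strand) had 30 exon intervals each, and Ly75 (chr2:60131817-60221288, minus strand) had 35. None of the 9 shared exon bases with another gene of that annotation. In GENCODE vM1, transcripts of the opposite strand cover 9.31% of the exon bases of Clec4g (Gm16553) and 4.81% of those of Ly75 (Gm13571). Because strand was ignored in counting, reads of these transcripts could not be told apart from those of the receptors.

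The sequences before the start sites of 5 members are shown, grouped by the population in which they were highest. Mrc1 and Ly75, which also differed strongly between populations as described below, are not shown. Clec1a, Clec1b and Clec4g were highest in LN-LEC, and Clec14a and Cd93 were highest in LN-BEC. Each sequence holds the 250 bases before the annotated start in mm9, on the strand of the gene, from chr6:129402019-129402268 (minus strand), chr6:129347065-129347314 (plus strand), chr8:3720652-3720901 (minus strand), chr12:59370246-59370495 (minus strand) and chr2:148269272-148269521 (minus strand). Capitals mark matches, on either strand, to 5 short motifs that are spelled out after the sequences.
Clec1a: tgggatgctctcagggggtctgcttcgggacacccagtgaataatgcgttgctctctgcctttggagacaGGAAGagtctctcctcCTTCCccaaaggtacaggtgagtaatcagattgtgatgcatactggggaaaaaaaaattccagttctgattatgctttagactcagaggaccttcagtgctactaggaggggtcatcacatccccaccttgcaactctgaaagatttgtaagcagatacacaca
Clec1b: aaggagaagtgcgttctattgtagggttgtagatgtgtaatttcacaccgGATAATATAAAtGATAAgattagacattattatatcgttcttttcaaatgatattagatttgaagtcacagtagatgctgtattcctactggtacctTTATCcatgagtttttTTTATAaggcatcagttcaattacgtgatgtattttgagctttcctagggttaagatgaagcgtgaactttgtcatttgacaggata
Clec4g: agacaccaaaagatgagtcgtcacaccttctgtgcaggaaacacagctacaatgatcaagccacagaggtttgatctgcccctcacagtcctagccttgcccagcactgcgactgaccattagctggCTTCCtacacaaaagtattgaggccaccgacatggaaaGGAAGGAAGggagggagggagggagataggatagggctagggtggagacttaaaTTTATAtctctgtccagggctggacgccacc
Clec14a: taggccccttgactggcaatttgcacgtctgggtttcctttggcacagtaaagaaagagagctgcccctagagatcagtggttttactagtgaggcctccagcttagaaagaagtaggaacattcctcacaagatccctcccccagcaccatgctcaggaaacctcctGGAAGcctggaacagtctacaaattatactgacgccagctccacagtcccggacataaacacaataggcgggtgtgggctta
Cd93: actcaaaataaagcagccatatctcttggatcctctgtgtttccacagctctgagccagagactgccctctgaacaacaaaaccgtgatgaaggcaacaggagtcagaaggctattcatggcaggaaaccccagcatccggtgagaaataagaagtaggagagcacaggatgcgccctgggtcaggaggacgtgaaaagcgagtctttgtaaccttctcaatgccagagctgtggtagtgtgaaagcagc
The core of ETS factor sites, GGAAG, was present before 5 of the 9 genes (Clec1a, Clec4g, Clec14a, Mrc1 and Mrc2), beside 64.0% of the 23179 start sites with such a sequence. The GATA factor motif, GATAA, was found before Clec1b and Mrc2, and 20.6% of all start sites had it. The TATA box, TATAAA, was found before Clec1b and Clec4g (12.1% of all). The nuclear receptor motif, AGGTCA, was found before Clec2d (12.2% of all). The SOX factor motif, AACAAT, was found before none of the 9 (8.53% of all). Before Mrc2, matches to the ETS and GATA motifs overlapped. No match was found before Cd93 or Ly75. G and C made up 33.2% of the bases before Clec1b and 47.6 to 52.0% of those before the other 4 genes shown, and the median over all start sites was 55.6%. These matches describe letters in a window and not sites in use.

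The libraries held 22429940 to 48906070 fragments counted to genes (median 33067956.5), so that 3 counts, taken as the limit for a gene at 0, corresponded to 0.0613 to 0.134 CPM (counts scaled to the library size). Levels below are counts divided by size factors (normalized counts) and serve to compare the same gene between libraries. All 5 lymphatic markers tested (Prox1, Lyve1, Flt4, Reln and the sorting marker Pdpn) were higher in LN-LEC and in D-LEC than in LN-BEC, and all 4 blood endothelial markers (Flt1, Nrp1, Vwf, Notch4) were higher in LN-BEC than in either. A pair of libraries stood apart from the others of their population. The chi-square per gene between counts of LN-LEC replicate 4 and the other LN-LEC libraries was 130 to 170, against 11.2 to 20.4 among those, and for LN-BEC replicate 3 it was 342 and 427, against 29 between the other two. LN-LEC replicate 4 was the deepest library, which raises this value, and it was the lowest LN-LEC library for Clec1a, Clec1b, Clec2d, Clec4g, Mrc1 and Ly75. LN-BEC replicate 3 carried the most transcripts of lymphatic markers among the LN-BEC libraries. Without both libraries, 6, 7 and 8 of the 9 receptor genes were called in the 3 comparisons described next, as with them. Markers of other cells were not absent: the summed level of 8 T and NK cell markers was 72.6 to 86.1 in LN-LEC, 398.1 to 684.1 in LN-BEC and 290.6 to 362.0 in D-LEC. Most of the D-LEC sum was Klrb1c, itself a C-type lectin gene, and the sum of the other 7 was 71.3 to 84.9, 396.0 to 676.2 and 22.05 to 54.2. That of 5 B cell markers was 337.0 to 484.9, 570.3 to 851.0 and 13.2 to 40.4, and that of 7 skeletal muscle markers was 30.8 to 46.7, 82.2 to 104.0 and 981.3 to 1377.

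Differential expression was tested with edgeR's quasi-likelihood test over 15327 genes, and a gene with a Benjamini-Hochberg adjusted p under 0.05 was called. The question of the LN-LEC and LN-BEC comparison was which receptors separate the lymphatic from the blood vessel lining of the same nodes. Of the 9 genes, 4 were overexpressed in LN-LEC (Clec1a, Clec1b, Clec4g, Mrc1) and 2 in LN-BEC (Clec14a, Cd93), where 38.2% of all genes tested were called in either direction. By direction, 19.8% of all genes were higher in LN-LEC and 18.4% were higher in LN-BEC. The LN-LEC and D-LEC comparison asked which receptors mark lymphatic cells of the node rather than of tissue. Here 7 of the 9 genes were overexpressed in LN-LEC and none in D-LEC, where 45.8% of all genes were called. By direction, 24.1% of all genes were called higher in LN-LEC and 21.7% in D-LEC. In D-LEC against LN-BEC, 7 were overexpressed in LN-BEC and 1, Mrc1, in D-LEC, where 48.1% of all genes were called. By direction, 25.6% of all genes were higher in LN-BEC and 22.5% higher in D-LEC.

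The median log2 fold change of the 9 genes was 0.29 in LN-LEC over LN-BEC, 2.82 in LN-LEC over D-LEC and -2.93 in D-LEC over LN-BEC, and the medians over all genes tested were -0.01, 0.03 and -0.05. These comparisons share libraries and are not independent of each other. Changes of at least 5-fold that were also called numbered 4, 5 and 6 of the 9 in the 3 comparisons, against 9.84%, 12.2% and 15.2% of all genes. The ranges of the libraries did not overlap for 6, 8 and 8 of the 9, against 44.9%, 50.0% and 56.1% of all genes. Mrc2 was called in no comparison.

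**Figure D1:**
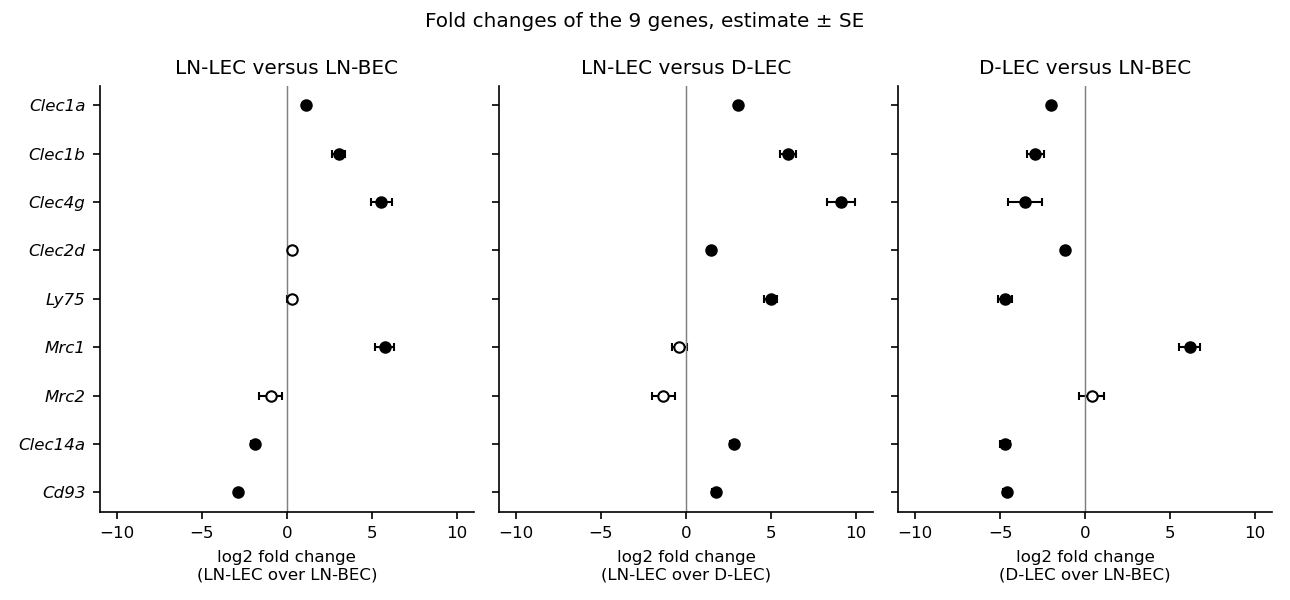
Log2 fold changes of the 9 genes with their standard errors in the 3 comparisons (x axes, the population named first over the second); filled circles were called by edgeR's quasi-likelihood test and open circles were not. In LN-LEC against D-LEC, 7 of the 9 estimates lie right of 0 and are called, and Mrc1 and Mrc2 are the open circles left of 0.

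Clec4g showed the widest range among the 9 genes. Its normalized counts were 3631, 3419, 4386 and 2711 in the 4 LN-LEC libraries, 30.6, 32.9 and 170.2 in the LN-BEC libraries and 6.31, 10.02 and 3.31 in the D-LEC libraries. No population overlapped another, and LN-BEC replicate 3 lay well above the other LN-BEC libraries. The level in LN-LEC exceeded that in LN-BEC by a log2 fold change of 5.57 ± 0.61 (SE, adjusted p = 0.00016) and that in D-LEC by 9.11 ± 0.82 (adjusted p = 4.1e-05). D-LEC lay under LN-BEC by a log2 fold change of -3.55 ± 0.99 (adjusted p = 0.019). This last call was lost without D-LEC replicate 1 (adjusted p = 0.058) and without D-LEC replicate 3 (adjusted p = 0.072). Without LN-BEC replicate 3 it became -2.31 ± 0.42 (adjusted p = 0.00068), and the difference between LN-LEC and LN-BEC became 6.80 ± 0.27.

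Clec1b followed the same order. It was counted at 1256, 1080, 1669 and 799.6 in LN-LEC, at 124.3, 107.2 and 209.0 in LN-BEC and at 11.4, 34.1 and 11.6 in D-LEC after normalization. The 3 populations did not overlap. LN-LEC stood above LN-BEC by a log2 fold change of 3.05 ± 0.37 (adjusted p = 0.00014) and above D-LEC by 5.99 ± 0.48 (adjusted p = 6.4e-06), and D-LEC stood below LN-BEC by -2.93 ± 0.50 (adjusted p = 0.0010). D-LEC replicate 2 was the highest of its group, and without it the contrast of LN-LEC with D-LEC became 6.71 ± 0.51 and that of D-LEC with LN-BEC became -3.66 ± 0.53. Since platelets carry the Clec1b protein, 7 platelet and megakaryocyte markers were read beside it. Their summed level was 991.4 to 1211 in LN-LEC, 1261 to 1833 for LN-BEC and 110.7 to 247.5 for D-LEC. Most of this sum was Pf4, at a mean of 861.4 in LN-LEC and 1528 in LN-BEC, and Gp6, the platelet collagen receptor, had no count in any LN library. Single markers differed in direction: 2 were called higher in LN-LEC than LN-BEC (Gp1ba and Gp1bb) and 2 were called lower (Pf4 and Ppbp). Each is 33.3% of the 6 that passed the filter, beside 19.8 and 18.4% of all genes. Gp1ba, a subunit of the platelet receptor for von Willebrand factor, had means of 217.2 for LN-LEC, 32.7 for LN-BEC and 15.3 for D-LEC, the order of Clec1b (LN-LEC over LN-BEC 2.74 ± 0.275, adjusted p = 2.3e-06). Gp1bb had means of 8.58, 0.35 and 23.97, and its call between the LN populations (adjusted p = 0.014) was lost without LN-BEC replicate 1 or 2 (adjusted p = 0.057 and 0.055). The Clec1b level in LN-BEC was 12.2% ± 4.54 (SD, n = 3) of the LN-LEC mean, and the part of platelet transcripts in the Clec1b level was not tested.

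Clec1a showed the smallest fold changes of the 3 genes. LN-LEC libraries held 9048, 9467, 9724 and 7741, LN-BEC libraries 4375, 4336 and 3910, and D-LEC libraries 814.8, 1165 and 1229. Again the populations did not overlap, and each neighbouring pair in the order LN-LEC, LN-BEC, D-LEC differed. LN-LEC over LN-BEC gave a log2 fold change of 1.11 ± 0.13 (adjusted p = 1.5e-05), LN-LEC over D-LEC 3.09 ± 0.15 (adjusted p = 1.4e-09) and D-LEC over LN-BEC -1.98 ± 0.15 (adjusted p = 8.3e-08).

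**Figure D2:**
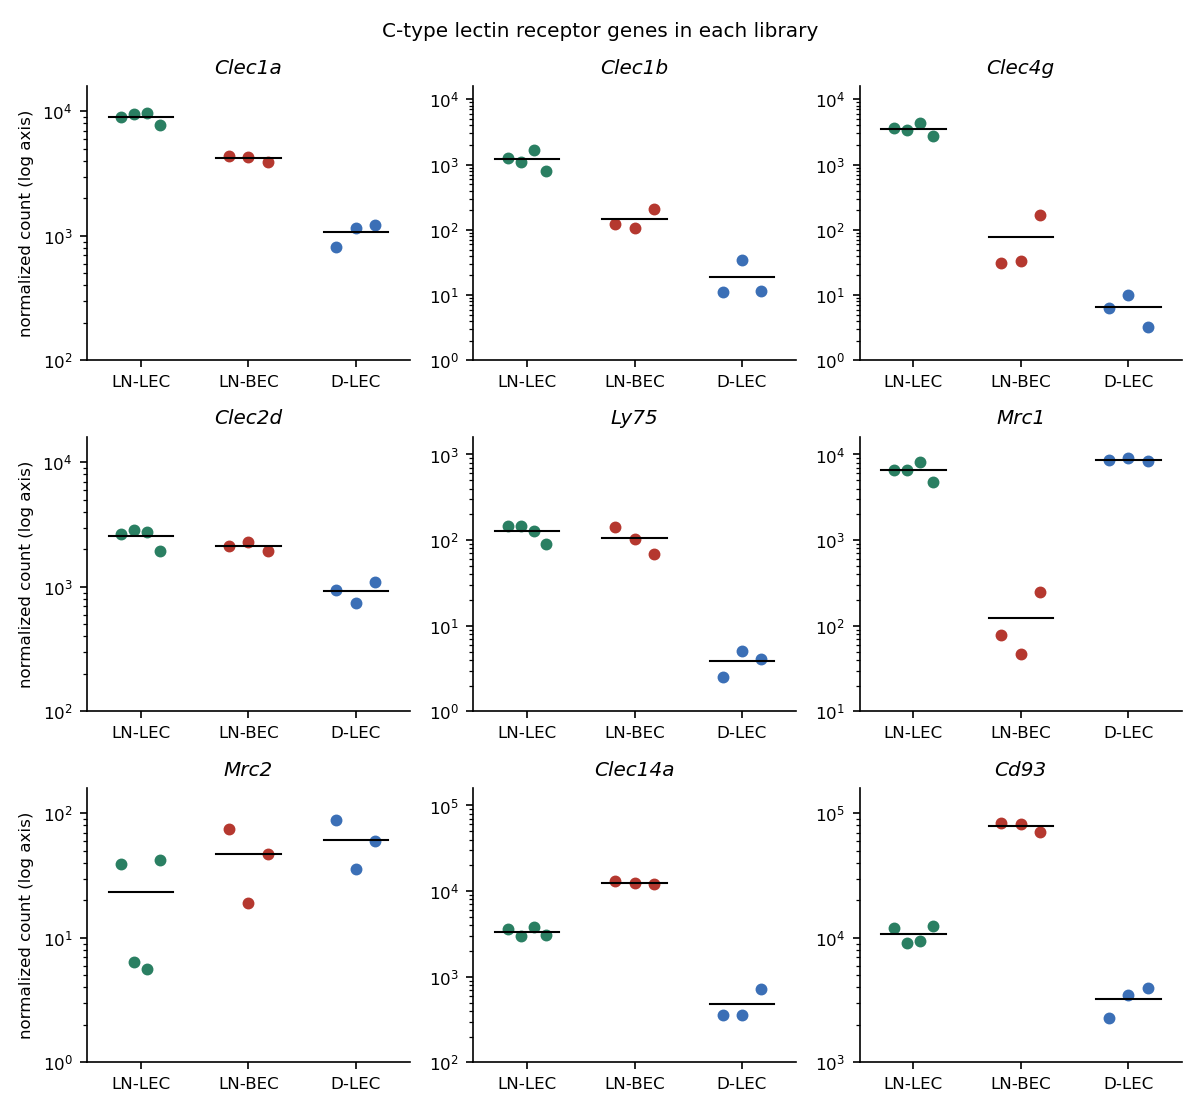
Normalized counts of the 9 genes (log axes) by population, with 4 libraries of LN-LEC and 3 of each other population; points are libraries and lines are means. Clec1a, Clec1b and Clec4g descend from LN-LEC to D-LEC without overlap, Clec14a and Cd93 peak in LN-BEC, Mrc1 is low in LN-BEC, and the Mrc2 libraries of the 3 populations overlap.

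The LN-BEC levels of these genes were set against those of lymphatic markers in the same libraries. Relative to the mean of LN-LEC libraries, Clec4g reached 0.866, 0.929 and 4.81% in LN-BEC replicates 1, 2 and 3, and Mrc1 reached 1.20, 0.713 and 3.80%. The lymphatic transcription factor Prox1 reached 2.57, 1.42 and 4.31%, the hyaluronan receptor Lyve1 1.45, 1.06 and 5.89%, and the sinus scavenger receptor Stab2 1.32, 0.696 and 4.87%. Other markers of the same lists stood higher, with Flt4 at 14.6, 11.9 and 16.6%, Stab1 at 19.7, 19.1 and 21.1% and Madcam1 at 202.9, 307.1 and 198.4%. Clec4g and Mrc1 thus lay within the range of Prox1, Lyve1 and Stab2 or close to it and were, like these 3, highest in replicate 3. The part of LEC transcripts in their LN-BEC level was not tested. Clec1b lay higher, at 10.4, 8.93 and 17.4%. Clec1a lay at 48.6, 48.2 and 43.5% and was lowest in replicate 3.

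**Figure D3:**
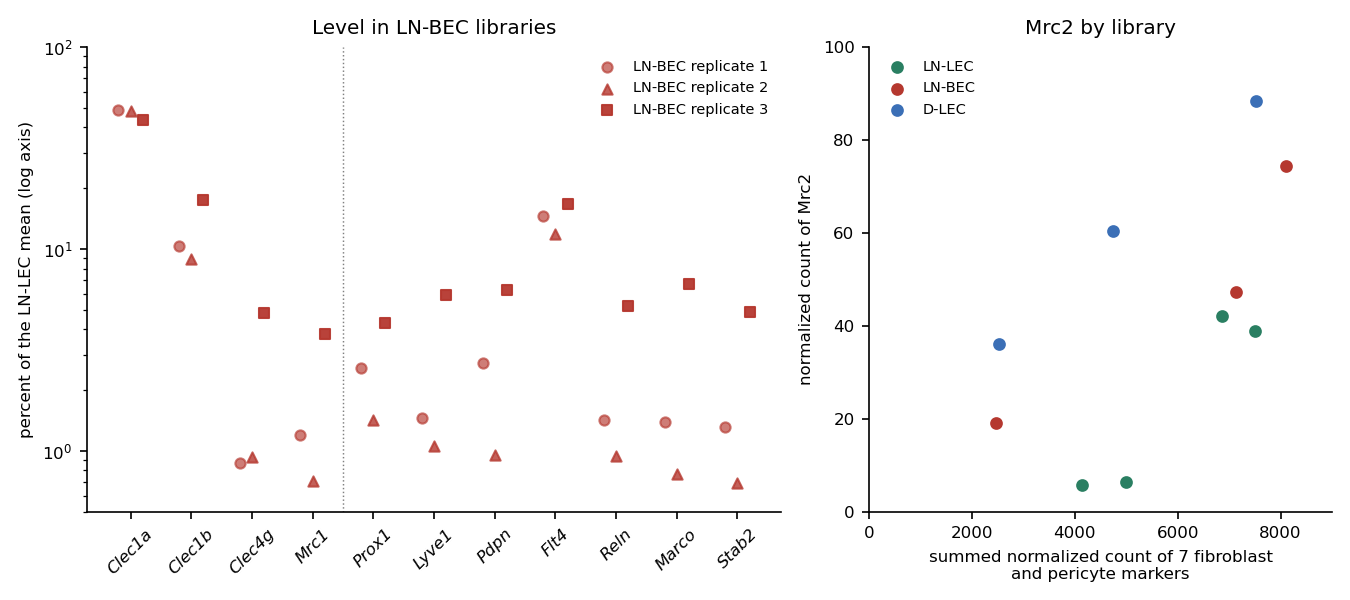
Left, level of 4 receptor genes and of 7 genes marking LEC or LN sinus LEC (right of the dotted line) in each LN-BEC library in percent of the mean LN-LEC level (log axis); right, normalized count of Mrc2 against the summed normalized count of 7 fibroblast and pericyte markers in 10 libraries. Clec1a stands at 43.5 to 48.6% and Clec4g at 0.866 to 4.81%; Mrc2 is lowest, at 5.65 and 6.35, in 2 of the LN-LEC libraries.

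Clec1a and Clec1b lie in a stretch of C-type lectin genes on chromosome 6, and the named genes of this stretch were read in their order. In this paragraph, levels of different genes are compared only as FPKM, which divides counts by exon length and library size. Clec12b, an inhibitory receptor gene next to Clec1b, was expressed at 481.8 ± 29.2 for LN-LEC (SD, n = 4), 383.3 ± 32.55 for LN-BEC and 22.1 ± 6.53 for D-LEC (n = 3 each). It was overexpressed in LN-LEC against D-LEC (log2 fold change 4.42 ± 0.18, adjusted p = 3.1e-10) and did not pass the test between LN-LEC and LN-BEC (0.35 ± 0.14, adjusted p = 0.067), where it was called with DESeq2, with limma, in a fit of these populations alone and without D-LEC replicate 1 (adjusted p = 0.022 to 0.040). Clec12a, Clec7a and Cd69, which lie in the same stretch and are known from myeloid cells or lymphocytes, had means of 2.36, 6.36 and 4.28 in LN-LEC. Clec12a and Cd69 were overexpressed in LN-BEC over LN-LEC (means of 17.4 and 56.5, adjusted p = 0.0074 and 0.00070). The Clec12a call was lost without LN-BEC replicate 3 (adjusted p = 0.052). Of 8 T and NK cell markers, 6 were also called higher in LN-BEC, which is 75.0% beside 18.4% of all genes. Of 13 macrophage and monocyte markers, 2 were called higher in LN-LEC and 2 in LN-BEC. These are 15.4 and 15.4%, beside 19.8 and 18.4% of all genes. The part of lymphocyte or myeloid transcripts in the Clec12a and Cd69 levels was not tested. Olr1, the lectin-like receptor for oxidized lipoprotein, was 49.2 ± 22.6 in LN-LEC, 25.8 ± 13.7 for LN-BEC and 2.64 ± 2.06 for D-LEC. Scaled for length, Clec1a reached 90.3 ± 8.83 FPKM in LN-LEC, Clec12b 9.75 ± 0.582 and Clec12a 0.0348 ± 0.0202.

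Clec9a, the gene between Clec1b and Clec1a, followed Clec1a from library to library. Clec9a encodes a receptor for dead cells known from cross-presenting dendritic cells. Its normalized counts were 2593 ± 184.2 in LN-LEC, 1109 ± 60.0 for LN-BEC and 262.6 ± 45.2 for D-LEC. The count of Clec9a was 28.9% ± 1.29 (SD, n = 4) of that of Clec1a in LN-LEC, 26.4% ± 2.21 for LN-BEC and 24.75% ± 2.02 for D-LEC (n = 3 each), without scaling for length. By contrast the count of Clec1b relative to Clec1a went from 13.2% ± 3.03 in LN-LEC to 3.55% ± 1.56 in LN-BEC and 1.75% ± 1.04 in D-LEC. Of 7 dendritic cell markers, 3 were called higher in LN-LEC than LN-BEC (Xcr1, Siglech and Batf3) and Ccr7 was called lower. In percent of the 6 that passed the filter these are 50.0 and 16.7, beside 19.8 and 18.4 of all genes. Xcr1, a chemokine receptor of cross-presenting dendritic cells, had means of 18.9, 3.88 and 0.609 in LN-LEC, then LN-BEC, then D-LEC, which is the order of Clec9a. Its call between the LN populations (adjusted p = 0.036) was lost without LN-LEC replicate 1, 2 or 3 and without LN-BEC replicate 1 or 3 (adjusted p = 0.050 to 0.13). Siglech had means of 24.02, 4.07 and 0.754 and Batf3 of 36.25, 12.4 and 21.99, while Itgax was at most 6.92 and Flt3 at most 1.26 in any library. The part of dendritic cell transcripts in the Clec9a level was not tested. The genes lie tail to tail on opposite strands. Their deposited ends are 1919 bases apart, and a GENCODE vM1 transcript of Clec1a extends to 7 bases from the end of Clec9a. With counts that ignore strand, transcription of Clec9a and transcripts of Clec1a that run past its end cannot be told apart here, so the Clec9a level is uncertain.

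**Figure D4:**
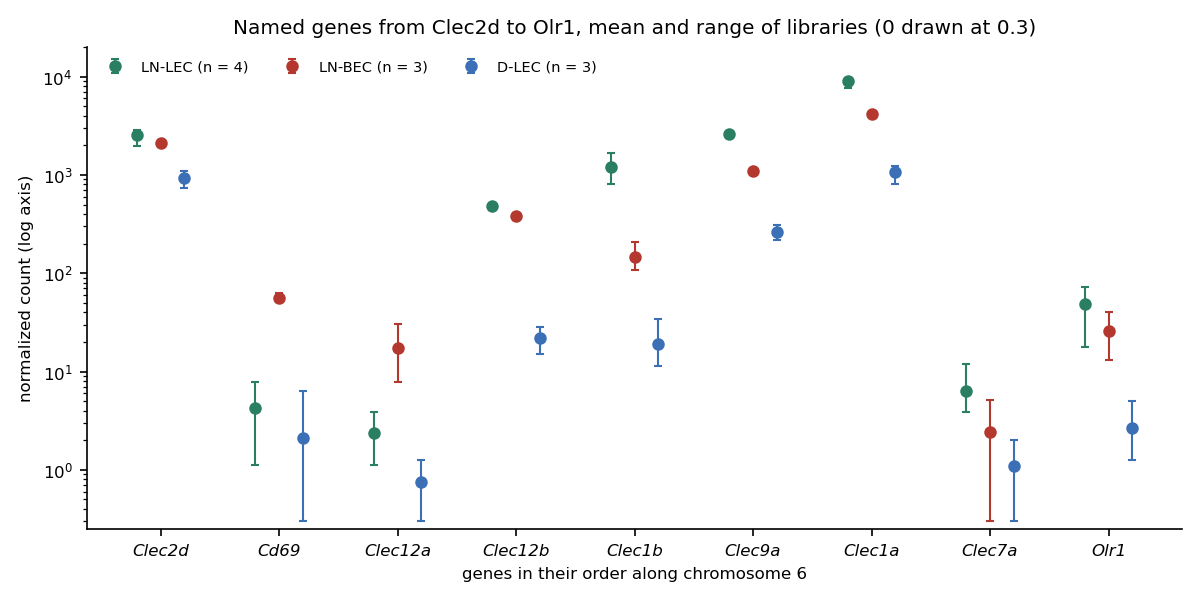
Normalized counts (log axis) of the named genes from Clec2d to Olr1 in their order on chromosome 6; points are means and bars span the lowest to the highest library, with libraries at 0 drawn at 0.3. Without scaling for length, Clec9a lies below Clec1a by a like distance in all 3 populations, whereas Clec1b falls more steeply from LN-LEC to D-LEC.

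Clec2d and Ly75 did not pass the test between the LN populations, and both were lower in D-LEC. The normalized counts of Clec2d were 2678, 2839, 2768 and 1948 in LN-LEC, 2112, 2279 and 1955 for LN-BEC and 938.4, 743.4 and 1088 for D-LEC. The LN libraries overlapped and D-LEC lay below all of them. The difference between LN-LEC and LN-BEC did not pass the test (log2 fold change 0.29 ± 0.14, adjusted p = 0.14), and LN-LEC replicate 4 decided this, since without it the value was 0.40 ± 0.12 (adjusted p = 0.019). D-LEC was lower than LN-LEC (log2 fold change of LN-LEC over D-LEC 1.49 ± 0.15, adjusted p = 3.0e-06) and lower than LN-BEC (D-LEC over LN-BEC -1.20 ± 0.16, adjusted p = 2.9e-05). Klrb1b, the receptor for the Clec2d protein, was at means of 0.317, 2.45 and 0 in LN-LEC, then LN-BEC, then D-LEC, and is known from natural killer cells.

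Ly75 was a low gene in all populations. It gave 145.2, 147.3, 128.9 and 89.9 normalized counts in LN-LEC, 143.6, 103.8 and 68.3 for LN-BEC and 2.52, 5.01 and 4.13 for D-LEC. The LN populations overlapped (log2 fold change 0.29 ± 0.28, adjusted p = 0.46), whereas LN-LEC exceeded D-LEC by 4.98 ± 0.40 (adjusted p = 2.3e-07) and D-LEC lay under LN-BEC by -4.69 ± 0.41 (adjusted p = 4.1e-07). Ly75 is best known from dendritic cells. Of their 7 markers, 6 passed the filter, and 4 of these were called higher in LN-LEC than D-LEC, the direction of Ly75 (Xcr1, Siglech, Ccr7 and Zbtb46). This is 66.7% of the 6, beside 24.1% of all genes, and none was called higher in D-LEC. Ccr7 had means of 6.57 for LN-LEC, 33.45 for LN-BEC and 0.42 for D-LEC. Itgax and Flt3 were at or near 0 in all libraries, as given above. The summed level of all 7 dendritic cell markers was 770.1 to 873.7 in LN-LEC, 652.2 to 767.9 in LN-BEC and 363.6 to 425.1 in D-LEC, and the greater part of it was Zbtb46 (means 734.1, 647.7 and 370.6), a transcription factor also known from endothelium. The part of dendritic cell transcripts in the Ly75 level was not tested.

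Mrc1 was overexpressed in both LEC populations over LN-BEC, and its difference between LN-LEC and D-LEC did not pass the test. Its normalized counts were 6621, 6537, 8243 and 4787 in LN-LEC, 78.8, 46.7 and 248.9 for LN-BEC and 8702, 9011 and 8460 for D-LEC. Every LEC library exceeded every LN-BEC library, and all 3 D-LEC libraries were above all 4 LN-LEC libraries. LN-LEC over LN-BEC gave a log2 fold change of 5.755 ± 0.58 (adjusted p = 8.9e-05) and D-LEC over LN-BEC 6.15 ± 0.60 (adjusted p = 5.8e-05). Without LN-BEC replicate 3 these were 6.71 ± 0.29 and 7.105 ± 0.30. Between the LEC populations the difference, LN-LEC over D-LEC, was -0.39 ± 0.43 and did not pass the test (adjusted p = 0.50). In a fit of these 2 populations alone it was -0.41 ± 0.15 and was called (adjusted p = 0.036). Mrc1 is also known from macrophages. The summed level of 13 macrophage and monocyte markers was 1847 to 2127 in LN-LEC, 1421 to 1521 for LN-BEC and 1730 to 2690 for D-LEC. Of the 13, 2 were called higher in LN-LEC than LN-BEC and 2 lower. Between LN-LEC and D-LEC, 1 was called higher in LN-LEC and 2 in D-LEC. Between D-LEC and LN-BEC, 2 were called higher in D-LEC and 1 in LN-BEC. In percent of the 13 these are 15.4 and 15.4, 7.69 and 15.4, and 15.4 and 7.69. Of all genes, 19.8 and 18.4%, 24.1 and 21.7%, and 22.5 and 25.6% were called in these directions. The defining macrophage genes Emr1, Itgam, Fcgr1 and Cd163 were at or near 0, with means of at most 6.93 in any population. The part of macrophage transcripts in the Mrc1 level was not tested.

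Mrc2, a collagen uptake receptor known from fibroblasts, was low. Normalized counts were 38.9, 6.35, 5.65 and 42.1 in LN-LEC, 74.4, 19.0 and 47.3 for LN-BEC and 88.3, 36.1 and 60.3 for D-LEC. All populations overlapped, and the log2 fold changes were -0.95 ± 0.68 for LN-LEC over LN-BEC (adjusted p = 0.31), -1.33 ± 0.68 for LN-LEC over D-LEC (adjusted p = 0.14) and 0.38 ± 0.71 for D-LEC over LN-BEC (adjusted p = 0.69). Within each population, the libraries with the lowest Mrc2 were those with the lowest sum of 7 fibroblast and pericyte markers. That sum was 7500, 4990, 4132 and 6859 in LN-LEC, 8105, 2463 and 7124 for LN-BEC and 7520, 2534 and 4742 for D-LEC. Of the 7 markers, 1 was called higher in LN-BEC than LN-LEC, 2 higher in LN-LEC than D-LEC and 2 higher in LN-BEC than D-LEC. None was called in the opposite directions. In percent of the 7 these are 14.3, 28.6 and 28.6, beside 18.4, 24.1 and 25.6 of all genes called in these directions. The Mrc2 estimates against D-LEC, which were not called, had the opposite directions. The part of fibroblast transcripts in the Mrc2 level was not tested.

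Clec14a and Cd93, the receptors of the group with EGF-like sequence, were highest in LN-BEC, intermediate in LN-LEC and lowest in D-LEC. Clec14a had 3642, 2976, 3838 and 3038 normalized counts in LN-LEC, 13068, 12402 and 12109 for LN-BEC and 359.5, 359.7 and 726.3 for D-LEC. No populations overlapped. LN-LEC over LN-BEC was -1.88 ± 0.22 on the log2 scale (adjusted p = 7.9e-05), LN-LEC over D-LEC 2.82 ± 0.25 (adjusted p = 8.2e-06) and D-LEC over LN-BEC -4.70 ± 0.28 (adjusted p = 3.0e-07).

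Cd93 encodes a receptor of matrix proteins on sprouting vessels. Its normalized counts were 11999, 9126, 9410 and 12359 in LN-LEC, 83339, 82607 and 71381 for LN-BEC and 2291, 3494 and 3943 for D-LEC, again without overlap. The log2 fold changes were -2.87 ± 0.18 for LN-LEC over LN-BEC (adjusted p = 7.9e-08), 1.74 ± 0.19 for LN-LEC over D-LEC (adjusted p = 8.0e-06) and -4.61 ± 0.22 for D-LEC over LN-BEC (adjusted p = 3.7e-09). The level in LN-LEC was 13.6% ± 2.14 (SD, n = 4) of the LN-BEC mean for Cd93 and 26.9% ± 3.45 for Clec14a. The blood endothelial markers Flt1, Nrp1, Vwf and Notch4 stood at 1.35, 1.48, 1.997 and 2.27% in the same libraries. In D-LEC, Cd93 stood at 4.10% ± 1.08 and Clec14a at 3.85% ± 1.69 (SD, n = 3), and the 4 markers stood at 0.233 to 4.82%. Thbd, the thrombomodulin gene next to Cd93 and a member of the same group, did not share this range, with means of 35328 in LN-LEC, 53826 for LN-BEC and 46660 for D-LEC.

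The make-up of the 9 receptor transcripts was compared on the FPKM scale. Summed over the 9 genes, FPKM was 405.6 ± 51.8 for LN-LEC (SD, n = 4), 582.3 ± 38.0 for LN-BEC and 108.5 ± 9.25 for D-LEC (n = 3 each). In LN-LEC the sum was spread over 7 genes. Clec4g held 23.0% ± 1.64 of it, Clec1a 22.3% ± 1.22, Clec2d 17.0% ± 1.56, Cd93 13.4% ± 3.55, Mrc1 9.87% ± 0.946, Clec1b 8.17% ± 1.49 and Clec14a 6.03% ± 0.481. The order of Clec4g and Clec1a, and that of Mrc1 and Clec1b, lay within these spreads. In LN-BEC, Cd93 alone held 66.3% ± 1.396 and Clec14a 15.4% ± 0.657, followed by Clec2d with 9.71% ± 0.412 and Clec1a with 7.17% ± 0.0248. In D-LEC, Mrc1 held 49.1% ± 4.76, Clec2d 22.6% ± 3.61, Cd93 14.4% ± 2.90 and Clec1a 9.70% ± 1.48. Ly75 and Mrc2 stayed under 1 FPKM in every library.

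**Figure D5:**
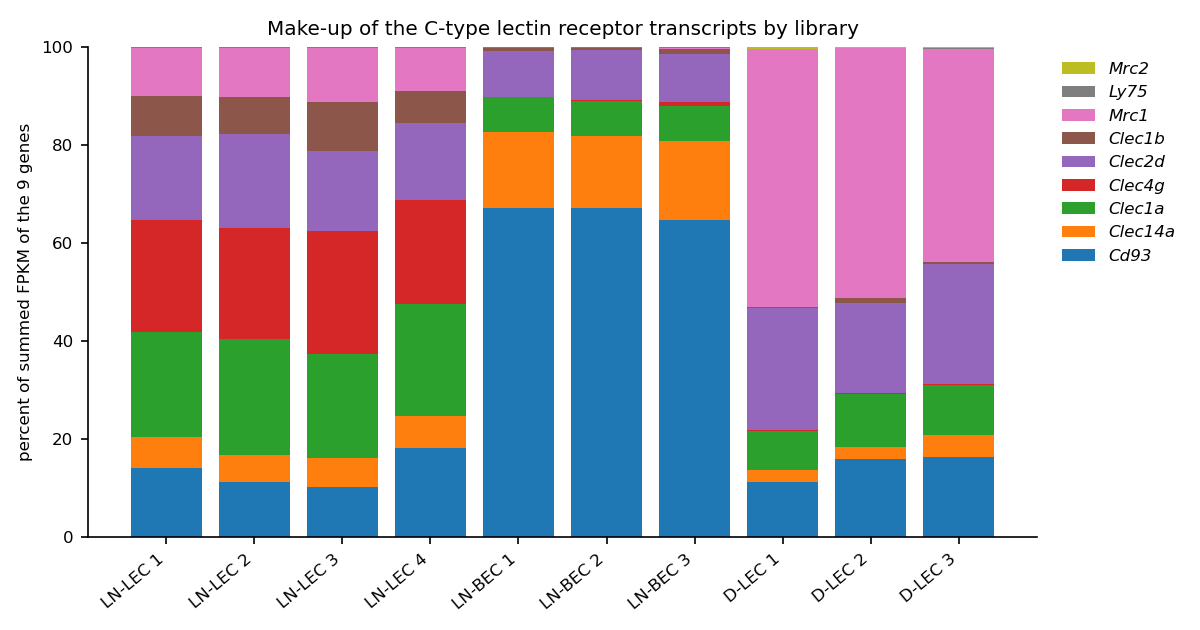
Share of each gene in the summed FPKM of the 9 genes (y axis, percent) for each of the 10 libraries. Cd93 takes 66.3% on average in LN-BEC, Mrc1 takes 49.1% in D-LEC, and no gene takes more than 25.2% in any LN-LEC library.

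Genes of 20 ligands, adaptors and signalling partners of these receptors were read next. Between LN-LEC and LN-BEC, 1 was overexpressed in LN-LEC and 9 were so in LN-BEC, and 10 were not called, beside 19.8% of all genes higher in LN-LEC and 18.4% in LN-BEC. Between LN-LEC and D-LEC, 8 were overexpressed in LN-LEC and 5 in D-LEC, and between D-LEC and LN-BEC, 4 in D-LEC and 11 in LN-BEC. The median log2 fold changes were -0.77, 0.27 and -0.76 in these comparisons, beside the medians and percentages over all genes given above. Pdpn, which encodes the Clec1b ligand podoplanin and was used in the sort, had means of 18853 in LN-LEC, 622.1 for LN-BEC and 63374 for D-LEC. Clec1b itself was highest in LN-LEC, and the kinase Syk, through which Clec1b is known to signal, was not. Syk was 23.7 ± 6.94 in LN-LEC, 463.8 ± 85.0 for LN-BEC and 4.70 ± 2.02 for D-LEC (log2 fold change of LN-LEC over LN-BEC -4.24 ± 0.25, adjusted p = 1.4e-08). The adaptor Lcp2 (SLP-76) was 458.0 ± 100.4, 1277 ± 81.9 and 3.43 ± 4.88, and Plcg2 was 47.3 ± 18.7, 183.4 ± 12.6 and 52.4 ± 19.1. The leukocyte gene Ptprc was also highest in LN-BEC (means 40.3, 284.5 and 14.9), and the part of leukocyte transcripts in these levels was not tested. Fcer1g, an adaptor with an activation motif, was highest in D-LEC (937.9 ± 61.98) and lowest in LN-LEC (124.8 ± 21.5).

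Partners of the LN-BEC receptors differed from each other. Mmrn2, the matrix protein bound by Clec14a and Cd93, was 11860 ± 973.6 in LN-LEC, 20513 ± 1191 for LN-BEC and 13121 ± 425.3 for D-LEC. It was lower in LN-LEC than it was in LN-BEC (log2 fold change -0.78 ± 0.09, adjusted p = 6.8e-06), and the difference of LN-LEC from D-LEC did not pass (-0.12 ± 0.09, adjusted p = 0.27). Igfbp7, a secreted ligand of Cd93, followed the order of Cd93 with 59083, 138275 and 2560 on average, and its log2 fold change of LN-LEC over D-LEC was 4.55 ± 0.16 (adjusted p = 5.8e-11). Msn, which links Cd93 to the cytoskeleton, was lower in LN-LEC (21001) than in LN-BEC (44103) and D-LEC (44200). Plau and Plaur, urokinase and its receptor with which Mrc2 associates, were overexpressed in D-LEC. Plau was 115.2 ± 15.1, 146.5 ± 37.4 and 1878 ± 424.5, and Plaur 775.7 ± 121.3, 643.3 ± 109.0 and 3323 ± 672.1 in LN-LEC, then LN-BEC, then D-LEC.

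Among 18 genes of clathrin uptake, endosomes and lysosomes, through which endocytic lectins deliver cargo, 9 were overexpressed in LN-LEC and 2 in LN-BEC when these were compared, and none of the 18 reached 5-fold. These are 50.0 and 11.1%, beside 19.8 and 18.4% of all genes. Between LN-LEC and D-LEC, 5 were overexpressed in LN-LEC and 4 in D-LEC, and between D-LEC and LN-BEC, 5 in D-LEC and 3 in LN-BEC. The former are 27.8 and 22.2%, near the 24.1 and 21.7% of all genes, and the latter 27.8 and 16.7%, beside 22.5 and 25.6%. The medians were 0.40, 0.23 and 0.03 on the log2 scale. The protease gene Ctss was lowest in D-LEC, like Ly75, with means of 3713 ± 232.4 in LN-LEC, 996.3 ± 125.7 for LN-BEC and 45.9 ± 35.7 for D-LEC (LN-LEC over D-LEC 6.44 ± 0.55, adjusted p = 2.3e-05, and 5.83 without D-LEC replicate 3). Ctsl was 13889, 7305 and 2694 on average and Ctsd 32486, 8000 and 14945, each highest in LN-LEC. Ctsb was highest in D-LEC, at 39660, and stood at 15324 in LN-LEC and 10480 in LN-BEC. The lysosomal membrane gene Lamp2 and the adaptor gene Ap2a2 were lowest in LN-BEC, like Mrc1, but over a much narrower range. Unlike that of Mrc1, their LN-LEC means lay above those of D-LEC. Lamp2 was 15096, 6391 and 14016 and Ap2a2 was 9993, 4143 and 8789 in LN-LEC, then LN-BEC, then D-LEC, and for neither did the difference between the LEC populations pass the test (adjusted p = 0.20 and 0.125). That of Ap2a2 was called without D-LEC replicate 1 (adjusted p = 0.011). The clathrin light chain gene Clta was 8340 in LN-LEC against 3743 and 3900 in the others.

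Of 60 further genes with a C-type lectin domain and a row in the table, 51 passed the filter. In LN-LEC against LN-BEC 13 were overexpressed in LN-LEC and 12 in LN-BEC, in LN-LEC against D-LEC 15 and 5, and in D-LEC against LN-BEC 7 in D-LEC and 17 in LN-BEC. In percent of the 51 these are 25.5 and 23.5, 29.4 and 9.8, and 13.7 and 33.3, beside 19.8 and 18.4, 24.1 and 21.7, and 22.5 and 25.6 of all genes. The median log2 fold changes were 0.35, 1.65 and -0.82. The largest changes among called genes whose libraries did not overlap included Klrb1f, a receptor gene of the natural killer family. It reached 7292 ± 505.6 in LN-LEC, 277.1 ± 132.6 for LN-BEC and 901.2 ± 342.1 for D-LEC (LN-LEC over LN-BEC 4.74 ± 0.44, adjusted p = 3.5e-05). Clec4e, the Mincle receptor of myeloid cells, was 33.5 ± 15.5, 1.69 ± 2.22 and 0.334 ± 0.579. Cd209b, a DC-SIGN relative, was 152.9 ± 56.9 and 57.3 ± 33.7 in the LN populations and 0.754 ± 0.666 in D-LEC. Bcan was 111.3 ± 44.0 in LN-LEC, 6.995 ± 7.64 in LN-BEC and at 0 in all D-LEC libraries. Cd209e was a few counts, with a mean of 3.45 in LN-LEC and 0 elsewhere, and its call against LN-BEC (adjusted p = 0.032) was lost with DESeq2 (adjusted p = 0.11) and without LN-LEC replicate 1 or 4 or any single LN-BEC library.

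Fewer genes of this group were highest in D-LEC. Klrb1c, a natural killer receptor gene, was 288.2 ± 19.6 in D-LEC, 5.63 ± 3.08 in LN-BEC and 0.638 ± 0.737 in LN-LEC (LN-LEC against D-LEC, adjusted p = 5.7e-09). The natural killer marker Ncr1 was at 0 in D-LEC and in LN-LEC and had a mean of 1.79 in LN-BEC. The part of natural killer cell transcripts in the Klrb1c level was not tested. Chodl was at 50.5 ± 43.5 in D-LEC and had no count in the LN libraries, and skeletal muscle markers were also highest in D-LEC, as given above; their part in this was not tested. Clec2e, the neighbour of Clec2d, was 85.4 ± 20.95 in D-LEC, 31.4 ± 14.5 in LN-LEC and 24.6 ± 2.36 in LN-BEC. Acan and Clec2i were highest in LN-BEC, at 16.3 ± 6.22 and 17.6 ± 11.7, with Acan at 0 in all LN-LEC libraries and Clec2i at 0 in all D-LEC libraries.

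For each of the 9 receptors, the 3 tested genes with the most similar profile were found by Pearson's r of log2 CPM over the 10 libraries, as a description without a test. These values mainly reflect differences between the 3 populations, which all 10 points share. Clec1a was most similar to Pcdh7 (r = 0.998), Clec9a (0.998) and Pawr (0.997), and Clec1b to Olfr99, Cebpa and Spib (0.991, 0.990 and 0.990). Clec4g was most similar to C1ql2, Zmynd15 and Hs3st5 (0.997, 0.994 and 0.994), of which C1ql2 and Hs3st5 were at 0 in D-LEC. Clec2d was closest to Slc16a1, Il15ra and Rnaset2b (0.990, 0.987 and 0.981). Ly75 was closest to Gbp11, Cd274 and H2-Q6 (0.997, 0.995 and 0.994). Cd274, the gene of the inhibitory ligand PD-L1, had means of 11750 in LN-LEC, 9632 for LN-BEC and 868.3 for D-LEC, so that it was lowest in D-LEC, like Ly75. Mrc1 was closest to Fam174b, Ptprf and Maf (0.998, 0.996 and 0.996). Maf, a transcription factor of lymphatic endothelium, was 34636, 1154 and 38974 on average. Clec14a was closest to Mndal, Ptgs1 and Ablim1 (0.997, 0.995 and 0.994), and Cd93 to Selp, Serpinb8 and Gcnt1 (0.998, 0.995 and 0.994). Selp encodes the adhesion molecule P-selectin and had means of 164.2, 1191 and 46.2 in LN-LEC, then LN-BEC, then D-LEC. Mrc2, whose level was low, had less similar genes (Hoxd1, Ces1d and Vgll3, with r of 0.952, 0.921 and 0.914), and Hoxd1 had means of at most 2.48.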

How the data were processed

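RNA of 10 libraries (4 LN-LEC, 3 LN-BEC, 3 D-LEC; grouped by the sample labels, which give no batch, sorting day or pairing) was measured. The authors amplified RNA with the Ovation RNA-Seq System V2, used Fastx-trimmer on the reads and STAR for alignment to mm9, and summed fragments per gene symbol over exons with featureCounts version 1.4.4, using pairs with both ends mapped, ignoring strand and leaving out fragments that mapped to several places. The deposited values are raw counts for 23284 symbols, beside a deposited column of exon lengths. Libraries held 22429940 to 48906070 counted fragments, and this number limits only genes near 0.

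Predicted genes, clones and LOC entries (3806 symbols) and genes with a mean normalized count under 1 in all 3 populations were left out, which gave 15327 genes. Levels are counts over DESeq2 size factors, as mean ± SD. Tests used edgeR 4.0.16 in R 4.3.3 (TMM, a robust quasi-likelihood F test, 1 mean per population over 10 libraries) with Benjamini-Hochberg adjustment within each comparison. The SE is the absolute log2 fold change over the square root of F. FPKM was computed from the TMM-scaled library size and exon length. Scripts were tested on simulated data. Alternatives were DESeq2 1.42.0 (size factors or Wald test), limma 3.58.1 with voom, 3 other filters, predicted genes kept, fits of 2 populations, and libraries left out. P-values measure the spread between pools of mice. Sequences were read from the NCBIM37 (mm9) genome. The text names all 9 members, the 3 genes most similar to each, the 3 largest non-overlapping changes per comparison and direction among other C-type lectin genes, and genes of the partner, endocytic and marker lists; those of these lists given with values were picked for their role or level after values were seen. A gene that this rule names is not reported here. Members and lists were chosen with earlier results of these data known, so none is independent evidence of a direction. Chromosome positions are those of the deposited annotation.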

Additional observations from a re-analysis of the deposited data

Results flagged for a closer look

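Plau, the urokinase gene, stood out in 1 library of LN-LEC. Its normalized count was 92.72 in LN-LEC replicate 3 and 120.5 to 124.4 in the other LN-LEC libraries, a gap of 0.878 of the whole range, above the 95% critical value of Dixon's test for 4 samples. It was the only one of 35 gene profiles tested in LN-LEC that did so, and chance alone gives about 1 in 20.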

How the results depend on the processing

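The counts of genes called, the fold changes of the 9 receptor genes and 39 fold changes of other genes were recomputed under 19 alternatives, 10 of which left out 1 library. Levels, shares of FPKM, marker sums and correlations were not. No fold change of a receptor gene reversed, and none of the other 39 did. Among the alternatives that left out no single library, 236 of 237 fold changes of receptor genes kept their direction and their side of the threshold, and the exception was Mrc1 between LN-LEC and D-LEC (-0.41, adjusted p = 0.036) when only these populations were fitted. With 1 library left out, 267 of 270 did; the exceptions were Clec2d between LN-LEC and LN-BEC, called without LN-LEC replicate 4 (values over the 10 libraries left out in turn 0.22 to 0.40), and Clec4g between D-LEC and LN-BEC, not called without D-LEC replicate 1 or 3 (-4.03 to -2.31, and -2.28 without LN-BEC replicate 3 and LN-LEC replicate 4 together). Mrc2 and Ly75 have no value under the FPKM filter, which removed them. With that filter the number of other C-type lectin genes called was also lower, from 13 to 8 (LN-LEC over LN-BEC), from 12 to 6 (LN-BEC over LN-LEC) and from 17 to 8 (LN-BEC over D-LEC). For the endocytic genes, the number overexpressed in LN-BEC over LN-LEC was 2 and became 1 without LN-BEC replicate 3 and LN-LEC replicate 4 together, with a range of 1 to 2 over single libraries left out (1 without LN-LEC replicate 1 or 4 or LN-BEC replicate 2 or 3). The number overexpressed in D-LEC over LN-LEC was 4, with a range of 2 to 4 (2 without D-LEC replicate 1). The cause of these shifts was not tested. No scaling moved the median log2 fold change of all genes by more than 0.1. No paired analysis was possible because the labels give the libraries no shared replicate numbers. Depth limits statements on Ly75, Clec4g and Clec1b in D-LEC and on Mrc2, which rest on few counts.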
